A study of Mus musculus with 4 samples.

Results

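The proteasome subunit genes of the mouse testis were described in 4 libraries of poly(A) RNA, 2 from hemicastrated and 2 from control mice. Members were all genes of the deposited expression table whose symbol begins with Psma, Psmb, Psmc, Psmd, Psme, Psmf or Psmg followed by a digit, without Psmb8, Psmb9 and Psmb10, the subunits of the immunoproteasome. The rule used symbols and no measured value, and it found 47 of the 22073 genes in the table. All libraries came from the right testis of sexually mature KM mice, an outbred strain. The hemicastrated mice had lost the left testis before puberty, and their controls were sham-operated at that age. The labels give no age and no genotype, and the design text gives 2 mice per group while the protocol text speaks of 3.

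The proteasome is the protease that degrades proteins tagged with ubiquitin. Its barrel, the 20S core, is built of rings of alpha subunits (Psma) and beta subunits (Psmb), and 3 of the constitutive beta subunits cut peptide bonds. The 19S regulator caps the barrel: an ATPase ring (Psmc) unfolds substrates, and the other subunits (Psmd) bind ubiquitin chains, remove them or hold the cap together. Activators (Psme) can replace the cap, Psmf1 is known as an inhibitor, and chaperones (Psmg, with Psmd5, Psmd9 and Psmd10) assist assembly. Testis is known for proteasomes that carry the germ cell alpha subunit Psma8 and the activator PA200, the product of Psme4.

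No member passed the test in either direction. Values are FPKM, a fragment count divided by transcript length and by the mapped fragments of the library. Each log2 fold change sets hemicastrated over control testes on the log2(FPKM + 1) scale. Of the 47 members, 45 averaged 1 FPKM or more and were tested. With limma and Benjamini-Hochberg adjustment over all 11343 tested genes, 0 members were higher and 0 lower at an adjusted p under 0.05, against 0.106% and 1.19% of all tested genes (1.30% in either direction). The smallest adjusted p among the members was 0.15, for Psmb3. At an unadjusted p under 0.05, 5 members (11.1%) were higher, against 3.98% of all tested genes, and 1 member (2.22%) was lower, against 6.52%. The higher 5 were the core subunits Psma6 and Psmb3, the ATPases Psmc2 and Psmc3, and Psmc3ip, which is no proteasome subunit. The lower one was the activator gene Psme2.

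The log2 fold changes of the tested members ran from -0.58 to 1.04, with a median of -0.013 and a middle 50% from -0.092 to 0.088. Over all tested genes the median was -0.026 and the middle 50% ran from -0.141 to 0.091. The median size of the log2 fold change, without its sign, was 0.092 for the members and 0.116 for all tested genes. Positive values were found for 22 of the 45 tested members (48.9%) and for 43.4% of all tested genes. On the log2(FPKM + 1) scale, the 95% interval of limma lay within a 2-fold change for 43 of the 45, the exceptions being Psmb3 and Psme2. It lay within a 1.5-fold change for 41. The pseudocount of 1 shrinks the changes of low members, so for them these counts do not bound the fold change of FPKM. With a pseudocount of 0.1, Psme2 was at -0.92 in place of -0.58, and Psma5 at 0.15 in place of 0.09. Both hemicastrated libraries were above both control libraries for 9 members (20%), against 16.3% of all tested genes. Both were below for 12 members (26.7%), against 24.8%. Both shares were near those of the whole table. In bulk tissue, fewer cells of a type and less RNA per cell cannot be told apart.

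**Figure D1:**
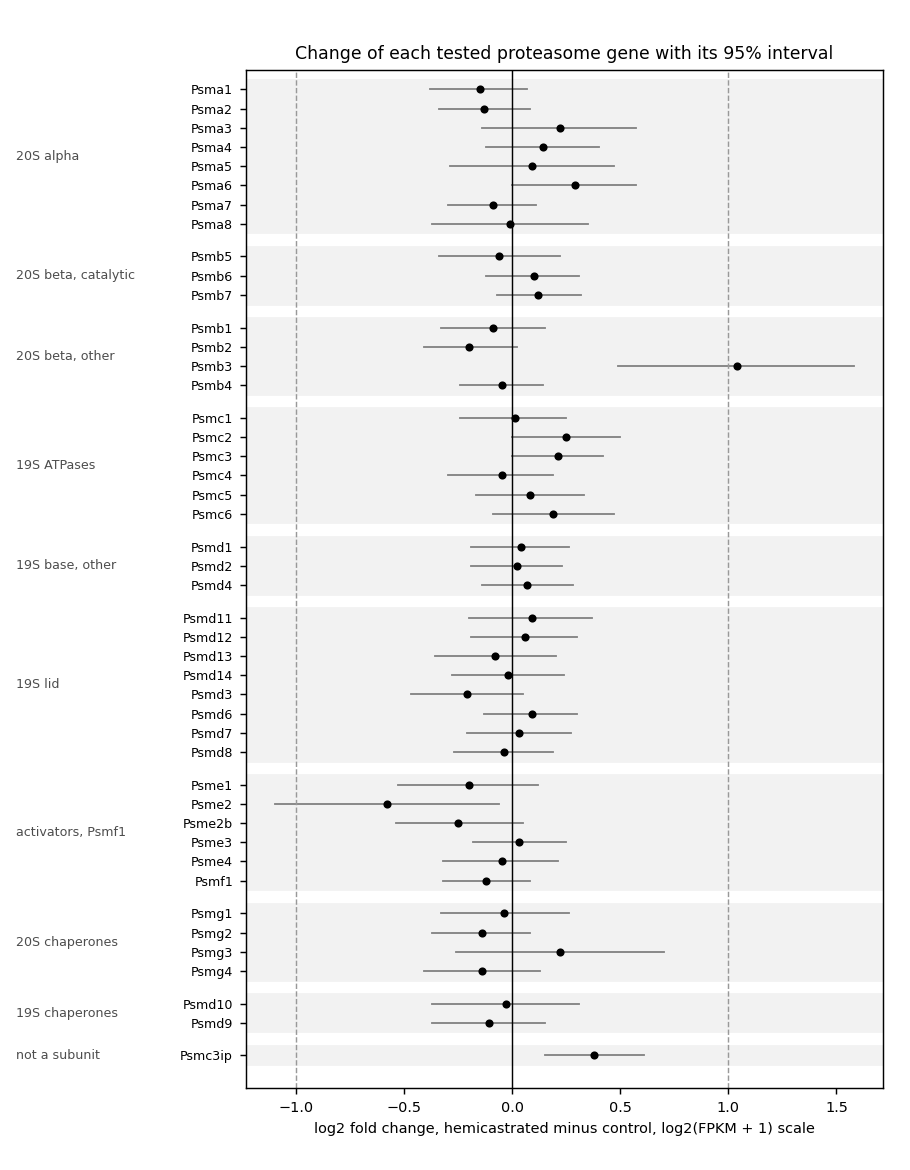
Log2 fold change (hemicastrated minus control, log2(FPKM + 1) scale) with its 95% limma interval for each of the 45 tested members, grouped by role, with dashed lines at a 2-fold change. Psmb3 at 1.04 and Psme2 at -0.58 lie farthest from 0, and the intervals of 43 members lie within a 2-fold change on this scale.

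The libraries also differed in some genes that mark cell types or tissues. Germ cell genes dominated them: Prm1, the protamine that packs sperm DNA, was at 5732 and 6458 FPKM in the hemicastrated libraries and at 5802 and 5995 FPKM in the control libraries. Of 10 tested genes listed for early meiotic prophase, 8 were positive with a median log2 fold change of 0.32, and none was called. Their summed level was 460.4 and 394.6 FPKM in hemicastrated testes, against 329.3 and 348.2 FPKM in control testes. The 11 round spermatid markers were all positive, with a median of 0.183 and no call. Of 9 tested smooth muscle and peritubular myoid markers, 5 were called lower, with log2 fold changes from -1.84 (Cnn1) to -1.22 (Des). The list summed to 217.7 and 240.9 FPKM in hemicastrated testes, against 322.1 and 294.4 FPKM in control testes. Most of each sum was Actg2, which was not called. It was at 183.5 and 209.3 FPKM in hemicastrated testes, against 218.7 and 213.2 FPKM in control testes. The epididymis marker Crisp1 was at 0.0453 and 0.0391 FPKM in the hemicastrated libraries and at 544.9 and 786.1 FPKM in the control libraries, and 2 of the 3 tested genes of that list were called lower. The other called gene, Adam7, was listed at 0 in both hemicastrated libraries and was at 18.6 and 21.4 FPKM in the control libraries. The list of 10 summed to 1.99 and 2.32 FPKM in the hemicastrated libraries, against 566.8 and 809.1 FPKM in the control libraries, nearly all of it Crisp1. Rnase10 was at 1.59 and 1.70 FPKM in the hemicastrated libraries and at 2.02 and 1.28 FPKM in the control libraries, and Lcn5 and Lcn8 were listed at 0 in all 4. The part of these differences in the members' values was not tested.

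Levels of the members spanned a wide range, and FPKM is per length, so they can be set beside each other. Averaged over the 4 libraries, 8 members were at 100 FPKM or more, 31 between 10 and 100 FPKM, and 5 under 5 FPKM. The highest was Psma6 with 396.1 FPKM, and Psmf1 (316.2 FPKM), Psmc3 (297.5 FPKM), Psmb6 (223.6 FPKM) and Psmd8 (180.1 FPKM) came next. Together the members made up 0.847% and 0.88% of the summed FPKM in hemicastrated testes and 0.824% and 0.83% in control testes. The 14 constitutive core subunits stand in the complex in equal number, yet their levels as listed differed 282.9-fold between Psma6 and Psma5. With the values of near-identical copies that have a row in the table added, described further on, the span was 29.6-fold and Psmb5 was lowest with 13.4 FPKM. Psmb5 has a copy of its own without a row, Gm3375, which could not be added.

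**Figure D2:**
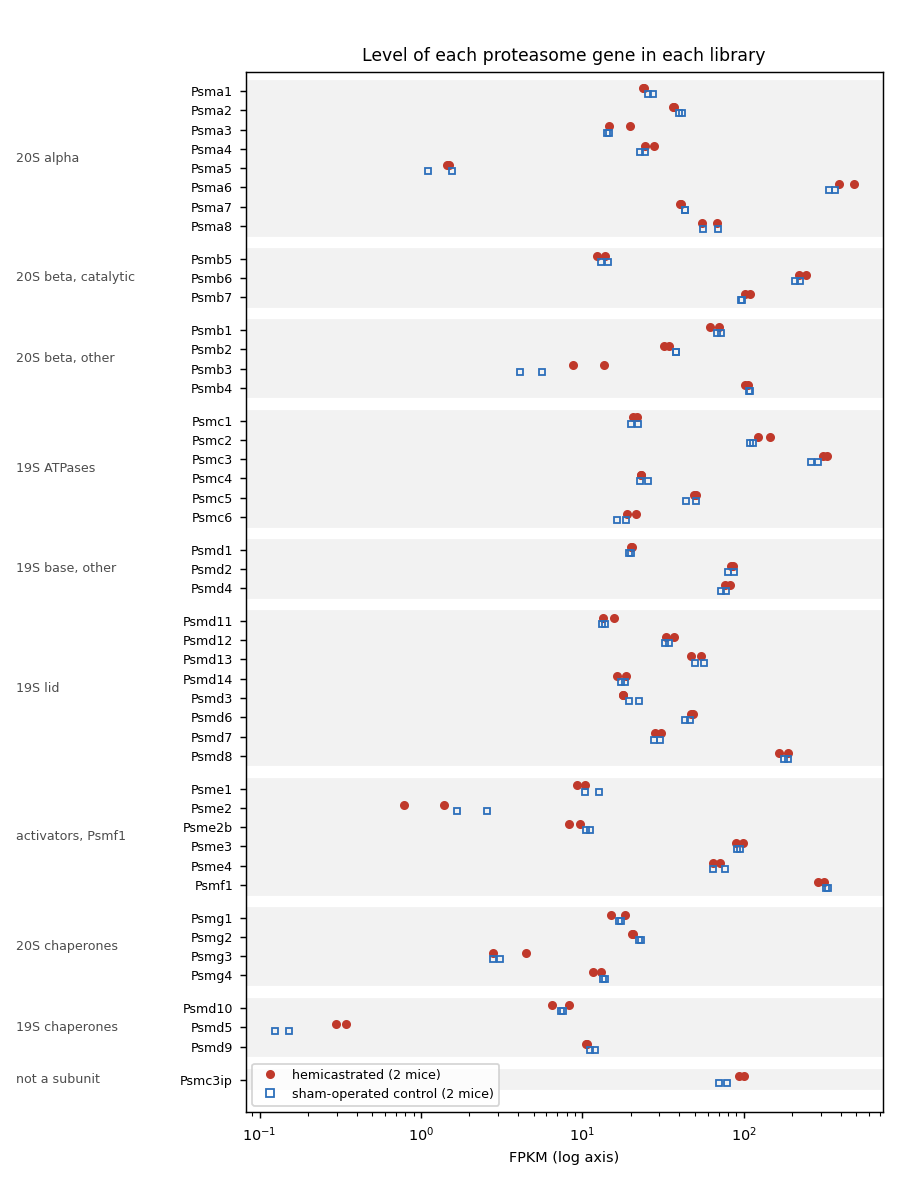
FPKM of every member but Psmb11, which is listed at 0 in some libraries, on a log axis and grouped by role; each point is 1 library, hemicastrated above control. Psma6 and Psmf1 stand highest and Psmd5 lowest, and the 4 points of most members lie close together beside the distance between members.

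The alpha ring members sat on both sides of 0. Psma6 was at 390.7 and 481.9 FPKM in hemicastrated testes, against 340.9 and 370.8 FPKM in control testes. Both hemicastrated libraries were above both control libraries, but the hemicastrated libraries also lay far from each other. The means were 436.3 ± 64.5 and 355.8 ± 21.1 FPKM (SD, n = 2 each). The log2 fold change was 0.29 (SE 0.12, adjusted p = 0.467 by limma). Psma3 was at 14.7 and 19.7 FPKM in hemicastrated testes and at 14.7 and 14.3 FPKM in control testes, where hemicastrated 2 alone stood apart (log2 fold change 0.22, adjusted p = 0.684 by limma). Psma3 has 3 near-identical copies without a row, and Gm13835 among them is 100% identical over 86.5% of the coding sequence. The value of Psma3 is therefore uncertain. Psma1, Psma2 and Psma4 lay between -0.15 and 0.14.

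Psma8, the alpha subunit of germ cells that takes the place of Psma7, did not separate the groups. It was at 55.2 and 68.8 FPKM in hemicastrated testes and at 55.7 and 69.5 FPKM in control testes. Each group held a lower and a higher library at nearly the same levels, so the groups overlapped over almost their whole range. The log2 fold change was -0.01 with an interval from -0.37 to 0.35 (adjusted p = 0.987 by limma). Its ubiquitous counterpart Psma7 was at 40.1 and 40.7 FPKM in hemicastrated testes, against 43.1 FPKM in both control testes. Those groups did not overlap, but the difference of -0.09 had an interval from -0.30 to 0.11 (adjusted p = 0.769 by limma). Within a library, the ratio of Psma8 to Psma7 was 1.38 and 1.69 in hemicastrated testes and 1.29 and 1.61 in control testes. Psma8 was thus the higher of the pair in all 4 libraries, and the log2 difference of the ratio was 0.08 (exact two-sided permutation p = 0.667, where 2 against 2 can give no less than 0.333). The sign turned without hemicastrated 2 (-0.067) and without control 1 (-0.077).

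The 3 catalytic subunits differed far more in level than between the groups. Psmb6, which carries the caspase-like activity, was at 220.2 and 242.1 FPKM in hemicastrated testes and at 223.1 and 208.8 FPKM in control testes. Psmb7, with the trypsin-like activity, was at 102.6 and 110.2 FPKM in hemicastrated testes, against 97.0 and 97.9 FPKM in control testes. Psmb5, with the chymotrypsin-like activity, was at 13.9 and 12.3 FPKM in hemicastrated testes and at 14.4 and 13.0 FPKM in control testes. Only the Psmb7 groups did not overlap. The log2 fold changes were 0.10 for Psmb6, 0.12 for Psmb7 and -0.06 for Psmb5. In the same order, the limma intervals ran from -0.12 to 0.31, from -0.07 to 0.32 and from -0.34 to 0.22. The longest overlap of a Psmb7 exon with an exon of Nek6, on the opposite strand, is 253 bases. Psmb11, the catalytic subunit of the thymus, was at 0.0143 FPKM and listed at 0 in the hemicastrated libraries, and was listed at 0 and at 0.0124 FPKM in the control libraries. It was not tested.

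Of the beta subunits without catalytic activity, Psmb3 had the widest difference of any member. It was at 13.6 and 8.73 FPKM in hemicastrated testes, against 4.11 and 5.61 FPKM in control testes. All values of the hemicastrated group were above those of the control group, with means of 11.2 ± 3.47 and 4.86 ± 1.06 FPKM (SD, n = 2 each). The log2 fold change was 1.04 (SE 0.23, interval 0.49 to 1.58, adjusted p = 0.15 by limma). Without hemicastrated 2 the difference was 1.33 and passed the threshold, with an adjusted p of 0.0247 by limma. Under the other settings the adjusted p ran from 0.066 to 0.77. Psmb1, Psmb2 and Psmb4 lay between -0.20 and -0.05, so Psmb3 was the only positive member of its role.

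Psmb3 (ENSMUSG00000069744, chr11:97703399-97713500 in GRCm38, plus strand) has a near-identical copy that the table also lists. This is Gm4950, a processed pseudogene on chromosome 18, which differs at 18 of 615 coding bases and shares an unbroken run of 112. Gm4950 was at 3.92 and 6.04 FPKM in hemicastrated testes, against 9.67 and 9.79 FPKM in control testes, a log2 fold change of -0.87 (adjusted p = 0.139 by limma). The order of the groups was thus the opposite of that of Psmb3. Psmb3 and Gm4950 summed to 17.6 and 14.8 FPKM in hemicastrated testes and to 13.8 and 15.4 FPKM in control testes. The sums overlapped, with a log2 fold change of 0.14 and an adjusted p of 0.77 by limma when the pair was counted as 1 gene. Psmb3 held 77.7% and 59.1% of the sum in hemicastrated testes, against 29.8% and 36.4% in control testes. No source used here states how reads that match both were shared out, so the value of Psmb3 alone is uncertain.

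**Figure D3:**
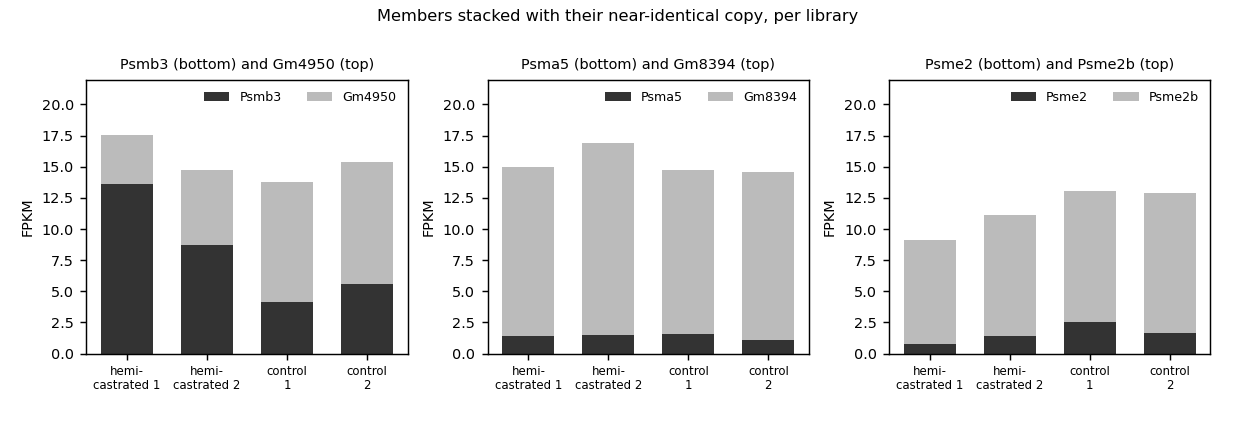
FPKM of 3 members (dark, bottom) stacked with their near-identical copy (grey, top) in each library, hemicastrated on the left of each panel. The Psmb3 part is taller in both hemicastrated libraries, at 13.6 and 8.73 FPKM, while the whole bar with Gm4950 overlaps between the groups.

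In all, 10 members had at least 1 copy with 95% identity or more over at least 50% of the coding sequence, 17 copies together, of which 14 are pseudogenes and 5 have a row in the table (Psme2 and Psme2b are each counted as a copy of the other). For Psma5, an alpha subunit, most of the signal lay in the copy. Psma5 was at 1.45 and 1.49 FPKM in hemicastrated testes and at 1.55 and 1.11 FPKM in control testes. Its processed pseudogene Gm8394 was at 13.5 and 15.4 FPKM in hemicastrated testes, against 13.2 and 13.5 FPKM in control testes. Psma5 held between 7.61% and 10.5% of the sum in the 4 libraries, and the log2 fold change of the sum was 0.11 (adjusted p = 0.791 by limma). The coding sequence of Psma5 differs from Gm8394 at 8 of 723 bases, with an unbroken shared run of 248. Coding bases 515 to 634 of Psma5 and the matching bases of Gm8394 are shown because they hold 3 of the differences, in capitals (GENCODE M21 transcripts).
Psma5: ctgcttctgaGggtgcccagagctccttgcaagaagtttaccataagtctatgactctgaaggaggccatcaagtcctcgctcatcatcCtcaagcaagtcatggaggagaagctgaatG
Gm8394: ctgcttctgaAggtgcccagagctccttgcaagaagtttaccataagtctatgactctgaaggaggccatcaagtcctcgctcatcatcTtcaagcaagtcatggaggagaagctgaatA
A read that covers none of the capitals fits both genes over this stretch.

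No subunit of the 19S regulator was called. In its ATPase ring, Psmc3 was at 329.5 and 309.0 FPKM in hemicastrated testes, against 288.6 and 262.8 FPKM in control testes. Psmc2 was at 123.4 and 146.1 FPKM in hemicastrated testes, against 115.1 and 110.0 FPKM in control testes. For both ATPases the hemicastrated libraries were above the control libraries. The log2 fold changes were 0.21 for Psmc3 (unadjusted p = 0.0484, adjusted p = 0.467 by limma) and 0.25 for Psmc2 (unadjusted p = 0.0491, adjusted p = 0.47 by limma). The other 4 ATPases, Psmc1, Psmc4, Psmc5 and Psmc6, lay between -0.05 and 0.19. The longest overlap of a Psmc3 exon with an exon of Slc39a13, on the opposite strand, is 147 bases. The protocol names no step that marks the strand. In all, 10 members overlap a gene on the opposite strand.

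The other subunits of the base were Psmd1, Psmd2 and the ubiquitin receptor Psmd4, with log2 fold changes from 0.02 to 0.07. Among the 8 subunits of the lid, Psmd8 was highest, at 166.3 and 189.5 FPKM in hemicastrated testes and at 177.2 and 187.3 FPKM in control testes. These overlapped (log2 fold change -0.04). Psmd3 was at 18 and 17.8 FPKM in hemicastrated testes, against 22.4 and 19.5 FPKM in control testes. Psmd3 had the most negative value of the lid, -0.21, with an interval from -0.47 to 0.05 (adjusted p = 0.572 by limma). The deubiquitinase Psmd14, which removes the ubiquitin chain, was at -0.02, and the remaining lid members lay between -0.08 and 0.09.

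Summed over members, the core and the cap gave similar totals in these libraries. The 20S core summed to 1137 and 1283 FPKM in hemicastrated testes, against 1098 and 1135 FPKM in control testes. The 19S regulator summed to 1129 and 1160 FPKM in hemicastrated testes, against 1093 and 1053 FPKM in control testes. Both sums were higher in each hemicastrated library than in each control library, by 0.12 and 0.09 as log2 ratios of the means. The core value rested largely on hemicastrated 2: it was 0.026 without that library and 0.2 without hemicastrated 1. Psma6 and Psmc3, which weigh most in them, were among the members higher in both hemicastrated libraries. The ratio of the core sum to the cap sum was 1.01 and 1.11 in hemicastrated testes and 1.01 and 1.08 in control testes, which overlapped.

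Of the 5 activator genes and the inhibitor Psmf1, 5 had a negative log2 fold change and Psme3 a positive one. Psme1, the alpha subunit of the activator PA28, was at 10.4 and 9.32 FPKM in hemicastrated testes, against 12.7 and 10.4 FPKM in control testes (log2 fold change -0.20, adjusted p = 0.67 by limma). Its partner Psme2, the beta subunit, was at 0.787 and 1.39 FPKM in hemicastrated testes, against 2.56 and 1.67 FPKM in control testes. The Psme2 groups did not overlap, but all 4 libraries were low. The log2 fold change of Psme2 was -0.58 (SE 0.21, interval -1.10 to -0.06, adjusted p = 0.412 by limma). At so low a level the value depended on the pseudocount and on single libraries: it was -0.92 with a pseudocount of 0.1, and -0.37 without hemicastrated 1 or without control 1. Psme3, the nuclear activator, was at 90.0 and 99.5 FPKM in hemicastrated testes and at 94.4 and 90.5 FPKM in control testes (log2 fold change 0.03). Psme4, the source of PA200, was at 71.1 and 64.7 FPKM in hemicastrated testes and at 64.9 and 76.5 FPKM in control testes, and its interval ran from -0.32 to 0.21. Neither of these abundant activators separated the groups. Psmf1 was at 290.3 and 315.8 FPKM in hemicastrated testes, against 325.1 and 333.7 FPKM in control testes. Its groups did not overlap, and the log2 fold change was -0.12 with an interval from -0.32 to 0.08 (adjusted p = 0.678 by limma).

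Psme2 (ENSMUSG00000079197, chr14:55587441-55591113 in GRCm38, minus strand) has a near-identical copy in Psme2b (ENSMUSG00000078153, chr11:48945354-48946190, minus strand), also a member. Psme2b was at 8.32 and 9.72 FPKM in hemicastrated testes, against 10.5 and 11.2 FPKM in control testes (log2 fold change -0.25, adjusted p = 0.563 by limma). The sum of both was 9.11 and 11.1 FPKM in hemicastrated testes, against 13.1 and 12.9 FPKM in control testes. It did not overlap between the groups, and its log2 fold change was -0.34 (adjusted p = 0.421 by limma). The coding sequence of Psme2 differs from Psme2b at 5 of 717 bases, with an unbroken shared run of 311. Coding bases 424 to 543 of Psme2 and the matching bases of Psme2b hold 3 of those differences, in capitals (GENCODE M21 transcripts).
Psme2: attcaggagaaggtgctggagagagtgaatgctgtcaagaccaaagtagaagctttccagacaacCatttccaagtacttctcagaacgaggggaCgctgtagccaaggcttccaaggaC
Psme2b: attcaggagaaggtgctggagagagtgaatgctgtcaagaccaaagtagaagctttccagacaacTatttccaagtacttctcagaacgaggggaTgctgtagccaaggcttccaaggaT
Within this stretch the 2 genes differ at the capitals only.

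The assembly chaperones were low to moderate in level. Psmg1, Psmg2 and Psmg4, which help to build the core, lay between -0.14 and -0.04. Psmg3 was at 4.50 and 2.81 FPKM in hemicastrated testes and at 2.78 and 3.09 FPKM in control testes, where hemicastrated 1 alone stood apart (log2 fold change 0.22, adjusted p = 0.766 by limma). Psmd9 and Psmd10, chaperones of the cap, lay at -0.11 and -0.03. Psmd5, another chaperone of the cap, was at 0.341 and 0.296 FPKM in hemicastrated testes, against 0.153 and 0.124 FPKM in control testes. Its groups did not overlap, but all values were under the 1 FPKM mean needed for the test.

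Psmc3ip (ENSMUSG00000019303, chr11:101091823-101095436 in GRCm38, minus strand) fits the symbol rule but encodes a meiotic recombination factor, known as HOP2, that works with Dmc1. It was at 100.2 and 93.6 FPKM in hemicastrated testes, against 78.7 and 70.1 FPKM in control testes. The groups did not overlap, with means of 96.9 ± 4.70 and 74.4 ± 6.07 FPKM (SD, n = 2 each). The log2 fold change was 0.38 (SE 0.10, interval 0.15 to 0.61, unadjusted p = 0.00665, adjusted p = 0.211 by limma). The early meiotic prophase list, whose median was 0.32, held genes on both sides of 0. Its member Dmc1, the recombinase, was at 3.31 and 3.12 FPKM in hemicastrated testes, against 4.22 and 4.15 FPKM in control testes (log2 fold change -0.30, adjusted p = 0.48 by limma). Spo11, which makes the breaks that start recombination, was at 11.9 and 10.9 FPKM in hemicastrated testes, against 17.1 and 13.7 FPKM in control testes (log2 fold change -0.39, adjusted p = 0.374 by limma). Both were lower without overlap, while the other 8 tested genes of the list were positive. Sycp3, a protein of the chromosome axis, was at 90.7 and 73.1 FPKM in hemicastrated testes, against 57.6 and 63.4 FPKM in control testes (log2 fold change 0.42, adjusted p = 0.287 by limma). Without Psmc3ip the median of the tested members was -0.016. The longest overlap of a Psmc3ip exon with an exon of Mlx, on the opposite strand, is 385 bases.

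Genes that work with the proteasome gave no call either. Of 33 listed partners, all tested, 0 were called in either direction and 1 had an unadjusted p under 0.05 in limma. Their log2 fold changes were negative for 25 and positive for 8, where 43.4% of all tested genes were positive. The median was -0.087, against -0.026 for all tested genes. Whether the list differs from all tested genes was not tested. Sem1, the small lid subunit outside the symbol rule, was at 40.1 and 34.2 FPKM in hemicastrated testes, against 32.3 and 31.5 FPKM in control testes (log2 fold change 0.21, adjusted p = 0.577 by limma). Usp14, a deubiquitinase that docks on the cap, was at 9.18 and 9.47 FPKM in hemicastrated testes, against 10.2 and 11.4 FPKM in control testes (log2 fold change -0.19, adjusted p = 0.627 by limma).

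Nfe2l1 encodes NRF1, the transcription factor known to raise proteasome genes together when the protease is inhibited. It was at 11.7 and 9.19 FPKM in hemicastrated testes and at 11.5 and 10.7 FPKM in control testes, which overlapped (log2 fold change -0.09). Its relative Nfe2l2 was at 3.07 and 2.84 FPKM in hemicastrated testes, against 3.76 and 3.65 FPKM in control testes (log2 fold change -0.25, adjusted p = 0.571 by limma). Ngly1, the enzyme that strips sugars from NRF1, was at 61.8 and 63.0 FPKM in hemicastrated testes and at 63.6 and 62.1 FPKM in control testes. No gene of this route was called.

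The immunoproteasome subunits that the rule left out were low. Psmb9 was at 4.69 and 1.71 FPKM in hemicastrated testes, against 1.27 and 1.47 FPKM in control testes, and Psmb8 was at 3.24 and 1.68 FPKM in hemicastrated testes and at 1.73 and 1.78 FPKM in control testes. In both genes hemicastrated 1 stood apart from the other 3 libraries. The log2 fold change was 0.73 for Psmb9 (adjusted p = 0.522 by limma) and 0.29 for Psmb8. Psmb10 was at 1.97 and 2.05 FPKM in hemicastrated testes and at 2.32 and 1.87 FPKM in control testes.

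**Figure D4:**
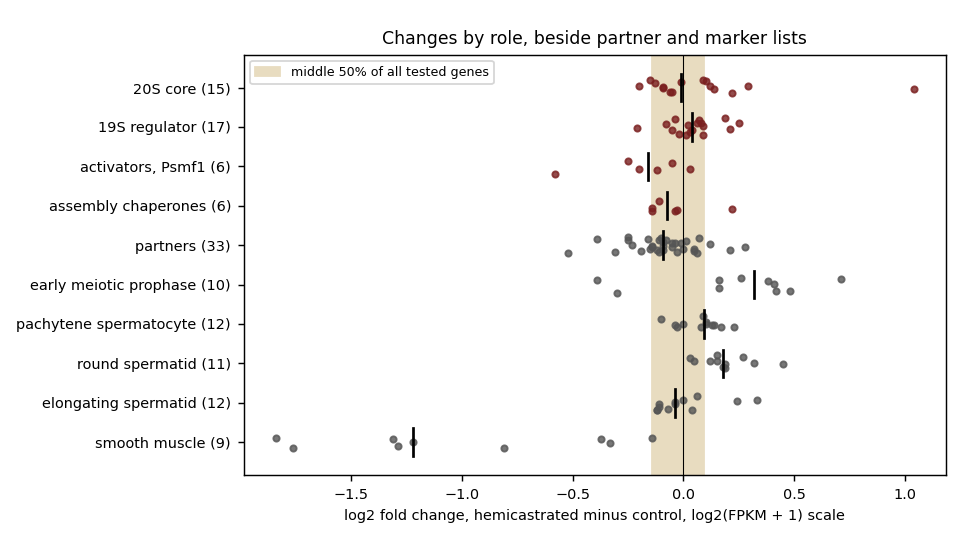
Log2 fold change (hemicastrated minus control, log2(FPKM + 1) scale) of each tested gene by role or list, with the number tested in brackets, a bar at the list's median and the middle 50% of all tested genes shaded. The medians of the core and of the 19S regulator lie within the shaded band and that of the activators with Psmf1 lies at -0.163, just outside it. The smooth muscle list has a median of -1.22 and early meiotic prophase one of 0.32.

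Promoters were read for the 39 members that have one in the RefSeq table (GRCm38.p6), over the 250 bases before the start site and on both strands. Of 12 motifs searched, CGGAAG, the core of many sites for ETS factors, was the one whose share differed most from the other genes. It was in 20 of the 39 (51.3%), against 29.0% of the 8946 tested genes with a promoter and 15.3% of all 27025 genes in the table. TGACNNNGC, the antioxidant response element that NRF1 binds, was in 5 (12.8%), against 13.8% of tested and 11.5% of all genes. Those 5 were Psmb5, Psmb6, Psmc6, Psmd9 and Psmd12. GGGCGG was in 53.8% of the member promoters and 61.3% of those of tested genes, CCAAT in 35.9% and 40.8%, and TATAAA in 7.69% and 8.06%. A match is a description of letters, not a site or a cause. The following windows show CGGAAG in the 4 members that were higher at an unadjusted p under 0.05 and hold it, followed by TGACNNNGC in 2 catalytic subunits, with the match in capitals and the gene's own strand read 5′ to 3′. CTTCCG is CGGAAG on the other strand.
Psma6, chr12:55398674-55398719, plus strand: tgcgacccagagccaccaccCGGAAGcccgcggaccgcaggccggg
Psmb3, chr11:97703231-97703276, plus strand: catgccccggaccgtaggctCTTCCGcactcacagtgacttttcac
Psmc2, chr5:21785171-21785216, plus strand: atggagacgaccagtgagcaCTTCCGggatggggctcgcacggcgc
Psmc3ip, chr11:101095436-101095461, minus strand: ttaaggtcccgcctcctcacCGGAAG
Psmb5, chr14:54618014-54618062, minus strand: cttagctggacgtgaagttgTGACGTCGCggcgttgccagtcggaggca
Psmb6, chr11:70525328-70525356, plus strand: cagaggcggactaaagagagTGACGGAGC
Psmc3 was not among the members found to hold CGGAAG. It matched none of the 12 motifs and may be among the 8 members without a promoter to read. The letters were thus found in 4 of the 5 members higher at an unadjusted p under 0.05 in limma, against 51.3% of all members read. The 5 may therefore include a member that was not read. The 4 include Psmc3ip, which is no subunit, and Psmb3, whose value alone is uncertain. The other tested members with CGGAAG ran from -0.08 for Psmd13 to 0.19 for Psmc6, with Psme4 at -0.05 and Psmd14 at -0.02. A link between the letters and the changes was not tested.

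The spread between libraries of 1 group set how small a difference could be seen. The median distance between the 2 hemicastrated libraries was 0.136 on the log2 scale for the tested members, and that between the 2 control libraries was 0.103. Over all tested genes these were 0.137 and 0.13. An adjusted p that missed the threshold does not show that the levels were alike. The intervals above give the differences the data allow on the log2(FPKM + 1) scale.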

How the data were processed

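Poly(A) RNA of 4 right testes was sequenced as paired-end reads, per the labels' protocols. The deposited values are FPKM, 1 per gene and library, made by the authors. TopHat2 2.0.11, Cufflinks 2.2.1 and GRCm38 are named per the submitters' processing notes, and the annotation and read length are not given in the sources used here. FPKM carries no counts, so depth is unknown and no counting interval is given; summed FPKM was 343105 and 353135 in hemicastrated libraries and 346632 and 344316 in control libraries. The labels name genomic DNA as the molecule, but the protocol is one for RNA, and the table was taken as RNA expression. GENCODE M21 named 21883 of 22073 identifiers.

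FPKM plus a pseudocount of 1 was set on a log2 scale, genes averaging 1 FPKM or more were kept, and limma 3.58.1 (R 4.3.3) compared the groups (trend, no covariate, two-sided, Benjamini-Hochberg over all tested genes, adjusted p under 0.05). The fit was tried on simulated data in 20 runs. A simulated 2-fold difference was called in 49.4% of cases, and a 4-fold difference in 88.8%. Genes simulated without a difference made up 4.21% of the calls. The changed genes were drawn at random from all tested genes, whose median level was 7.56 FPKM, against 25.2 FPKM for the members. The rate at which a true difference in a member would be called was thus not estimated. The p-values rest on the spread between libraries of a group, each taken as a single mouse per the design text. In limma that spread is drawn toward a trend fitted over all tested genes. Copies were found with BLAST 2.17.0 against GENCODE transcripts. Values in every library are given for the 10 tested members with the largest fold change, the 5 highest, the 3 lowest, those under the filter, catalytic subunits, Psma7, Psma8, Psme1 to Psme4 and Psmc3ip, and for up to 4 partners per list by smallest p, except that some partners are not reported here; Psmb8, Psmb9 and Psmb10, the copies Gm4950 and Gm8394 and the marker genes shown were named beside that rule. Members and lists were chosen with earlier results of these data known.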

Additional observations from a re-analysis of the deposited data

How the results depend on the processing

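No member was called in either direction under any other setting except without hemicastrated 2, where Psmb3 was called higher (0 to 1 members called higher when 1 library was left out). Counts over all genes moved more: 3 genes were higher without the filter on low values, 7 higher and 63 lower at a mean of at least 5 FPKM, and from 0 to 26 higher and from 78 to 156 lower when 1 library was left out. Deviations of same-numbered libraries were hardly correlated (0.0137 over 11343 genes), which cannot show whether the mice were paired. A replicate block gave 30 higher. The median log2 fold change of the members was 0.018 after median-ratio scaling and ran from -0.027 to 0.045 when 1 library was left out; that of the partners was -0.042 after quantile normalization, -0.057 after median-ratio scaling and ran from -0.105 to -0.024. The median over all tested genes moved too, from -0.026 to 0.017 after quantile normalization and to 0.001 after median-ratio scaling. The sign turned for Psme3 (-0.00) and Vcp (0.00) after quantile normalization and for Ngly1 (0.02) and Psma8 (0.02) after median-ratio scaling. The cause of these turns was not tested. Leaving out 1 library turned the sign of these values: Ngly1 ran from -0.03 to 0.01, Psma8 from -0.17 to 0.14, Psmd8 from -0.13 to 0.06, Psmg3 from -0.05 to 0.48, Psmb5 from -0.14 to 0.02, Psme3 from -0.04 to 0.10, Psme4 from -0.17 to 0.06, Psma5 from -0.05 to 0.22, Uba1 from -0.31 to 0.03, Nfe2l1 from -0.25 to 0.07 and Zfand2a from -0.63 to 0.01; Psmb3 ran from 0.74 to 1.33 and Psme2 from -0.79 to -0.37. The log2 difference of the Psma8 to Psma7 ratio ran from -0.077 to 0.239, that of the core sum from 0.026 to 0.2 and that of the 19S sum from 0.067 to 0.119. In TPM the value of Psme2 was -0.80. Summing near-identical copies was chosen after seeing the data. No other setting changed a direction or a call among the members and partners chosen by the naming rule. With 2 mice per group and no depth, small differences cannot be resolved.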
